A study of Mus musculus with 36 samples.

Results

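The SPARC family genes described here are Smoc1, Smoc2, Sparc, Sparcl1, Spock1, Spock2 and Spock3, which are 7 of the 24421 genes listed in each count table. Smoc2 was selected on its measured values, because its level moved in opposite directions in cerebellum and hippocampus with loss of Pogz. Its 6 relatives entered by family membership. The change of Smoc2 per Pogz allele lost, in either tissue, the difference of that change between tissues and the difference of its level between control tissues are therefore given as descriptions with no test, while the relatives were tested. For Smoc2 the heterozygous level against the other genotypes and the sex difference are likewise given with no test. All 7 genes passed the filter on low values, more than 1 CPM (a count scaled to the size of its library) in at least 6 libraries, in both tissues.

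Poly(A) RNA was sequenced from the cerebellum and the hippocampus of 18 adult C57Bl/6 mice, giving 36 libraries, to ask how gene expression changes when Pogz, which encodes a chromatin-bound zinc finger protein, is deleted in the brain. Controls carried Pogzfl/fl with no Cre, heterozygous knockouts (cKO+/-) were NesCre/+; Pogzfl/+, and homozygous knockouts (cKO-/-) were NesCre/+; Pogzfl/fl, with 3 males and 3 females of each genotype. Nestin-driven Cre acts in the progenitors of neurons and glia, so microglia, blood vessels and meninges largely keep the gene. Both knockout groups carried Cre and no control did, so in a comparison with controls an effect of Cre and an effect of the deletion cannot be told apart. Total counts ran from 21421850 to 32544929 per cerebellar library (median 28276808) and from 17609321 to 45544188 per hippocampal library (median 35549038).

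SPARC family proteins are secreted into the extracellular matrix, where they tune adhesion, growth factor signals and matrix assembly rather than build the scaffold, and they share a follistatin-like and a calcium-binding domain. In the brain, hevin, the product of Sparcl1, is released by astrocytes and Bergmann glia and promotes excitatory synapses by bridging neurexins and neuroligins, and Sparc opposes it. The testicans, encoded by Spock1, Spock2 and Spock3, are proteoglycans made largely by neurons that act on proteases, and the Smoc proteins antagonise bone morphogenetic protein (BMP) signals.

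Pogz itself was read first, as a check of the labels. In cerebellum its lowest, median and highest levels were 89.6, 93.1 and 130 CPM in controls, 66.4, 80.1 and 81.5 CPM in cKO+/- and 57.0, 65.3 and 74.0 CPM in cKO-/-. In hippocampus they were 89.0, 90.7 and 92.8 CPM in controls, 74.0, 75.6 and 80.2 CPM in cKO+/- and 58.7, 60.7 and 67.7 CPM in 5 cKO-/- libraries. Every knockout library lay below every control library of its tissue, and cKO+/- and cKO-/- overlapped in cerebellum but not in hippocampus. Counts per gene do not separate the floxed exons from the others, so what remains in cKO-/- is not a measure of intact Pogz RNA.

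The tissue labels were checked against marker lists. In controls the 8 granule cell markers of the cerebellum summed to between 5311 and 6244 CPM in cerebellum and between 56.7 and 322 CPM in hippocampus. The 322 CPM belonged to the library of animal Sample_1129, and the other hippocampal controls were at 98.2 CPM or below. The 10 markers of hippocampal pyramidal and dentate granule cells summed to between 330 and 400 CPM in cerebellum and between 6296 and 9014 CPM in hippocampus. Both sets sat high in the tissue they mark, and none of these genes was at 0 in all libraries of a tissue.

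The hippocampal library of the cKO-/- animal Sample_1160 stood apart from the rest. Its median correlation with the other hippocampal libraries was 0.889, against 0.981 or more for each of the others, and 1 unnamed outlier was left out in the study's own analysis. The hippocampal fit therefore used 17 libraries, and values with all 18 are given beside it. A separate split runs through the animals: every control is numbered between Sample_1120 and Sample_1219, as are 3 cKO+/- and 2 cKO-/- animals, while 3 cKO+/- and 4 cKO-/- animals are numbered outside that range. The labels do not say what the numbers stand for, so results are also given with a term for this range and within it.

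Among controls the genes covered a wide span of levels, compared here as CPM per kilobase of summed exon length. In cerebellum the median level was highest for Sparcl1 (740), followed by Sparc (273), Spock2 (218), Spock1 (46.3), Spock3 (39.0), Smoc1 (3.93) and Smoc2 (0.929). The ranges over the 6 controls overlapped between Sparc and Spock2 and between Spock1 and Spock3, and no other neighbours in that order overlapped. In hippocampus Sparcl1 (536) was again first, followed by Spock2 (149), Sparc (90.4), Spock1 (37.4), Spock3 (25.4), Smoc2 (19.5) and Smoc1 (4.18), with an overlap between Spock1 and Spock3 alone. Sparcl1 stood at or above the level of 99.8% of the genes tested in hippocampus, whereas Smoc2 in cerebellum stood above 9.73% of the genes tested there.

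**Figure D1:**
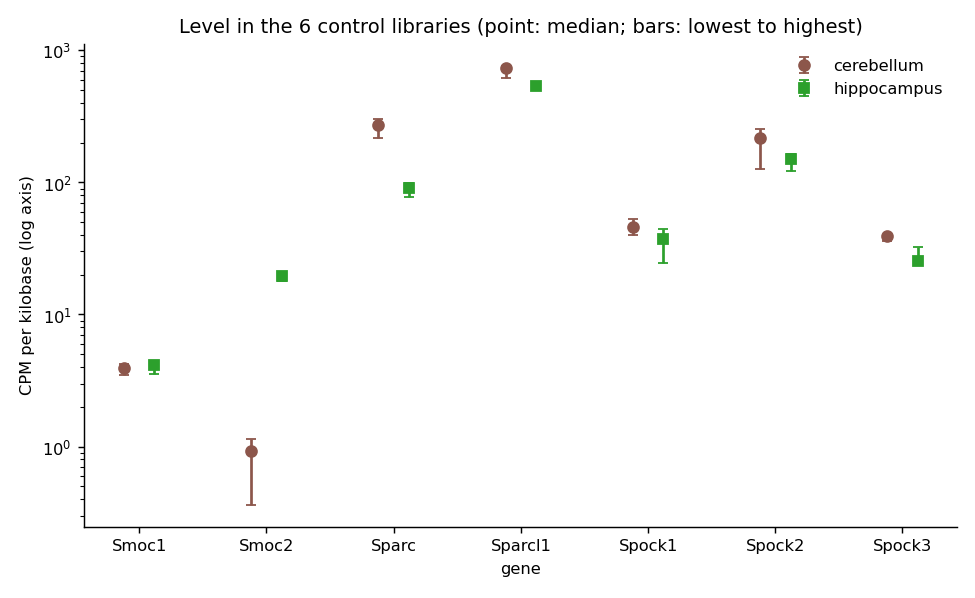
Level of each gene in the 6 control libraries of each tissue, as CPM per kilobase on a log axis, with the point at the median and bars from the lowest to the highest library. Smoc2 is the gene whose level differs most between the tissues, at a median of 0.929 in cerebellum and 19.5 in hippocampus.

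The order of the 7 genes thus differed between the tissues, and the control tissues were compared directly in 1 fit of 12 libraries. Smoc2 was at 1.02, 2.63 and 3.23 CPM (lowest, median and highest) in control cerebellum and at 50.4, 55.2 and 58.8 CPM in control hippocampus. It was higher in hippocampus by 4.62 on the log2 scale (SE 0.195), in 6 of 6 libraries, which is given with no test because the same control libraries entered the values that selected the gene. Sparc, which binds collagen, went the other way, at 578, 721 and 794 CPM in cerebellum and 204, 239 and 262 CPM in hippocampus, lower there by a log2 difference of -1.51 (SE 0.0879, adjusted p = 2.89e-09 by edgeR's quasi-likelihood F-test, Benjamini-Hochberg adjusted). Spock3 (-0.44), Spock2 (-0.40) and Sparcl1 (-0.31) were also lower in hippocampus, with adjusted p = 7.03e-05, 0.0244 and 0.000893 by the same edgeR test. Smoc1 (0.17, adjusted p = 0.0612) and Spock1 (-0.26, adjusted p = 0.0667) did not pass that edgeR test.

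So 4 of the 6 relatives passed in this contrast, beside 71.9% of all 14224 genes tested (35.2% of the genes tested were called higher in hippocampus), a share that makes a difference between these tissues the usual outcome for a gene. The Spock2 difference missed the threshold without control animal Sample_1155, Sample_1170 or Sample_1172 (adjusted p = 0.0736, 0.0714 and 0.0769 by edgeR). Spock1 passed without animal Sample_1129 or Sample_1172 (adjusted p = 0.0119 and 0.0396 by edgeR), and Smoc1 without animal Sample_1129 or Sample_1155 (adjusted p = 0.0466 and 0.0272 by edgeR). Smoc1 also passed with relative log expression size factors (adjusted p = 0.0423 by edgeR) and with DESeq2 (adjusted p = 0.0367), and with the animal as a paired block Spock1 passed (adjusted p = 0.0106 by edgeR).

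**Figure D2:**
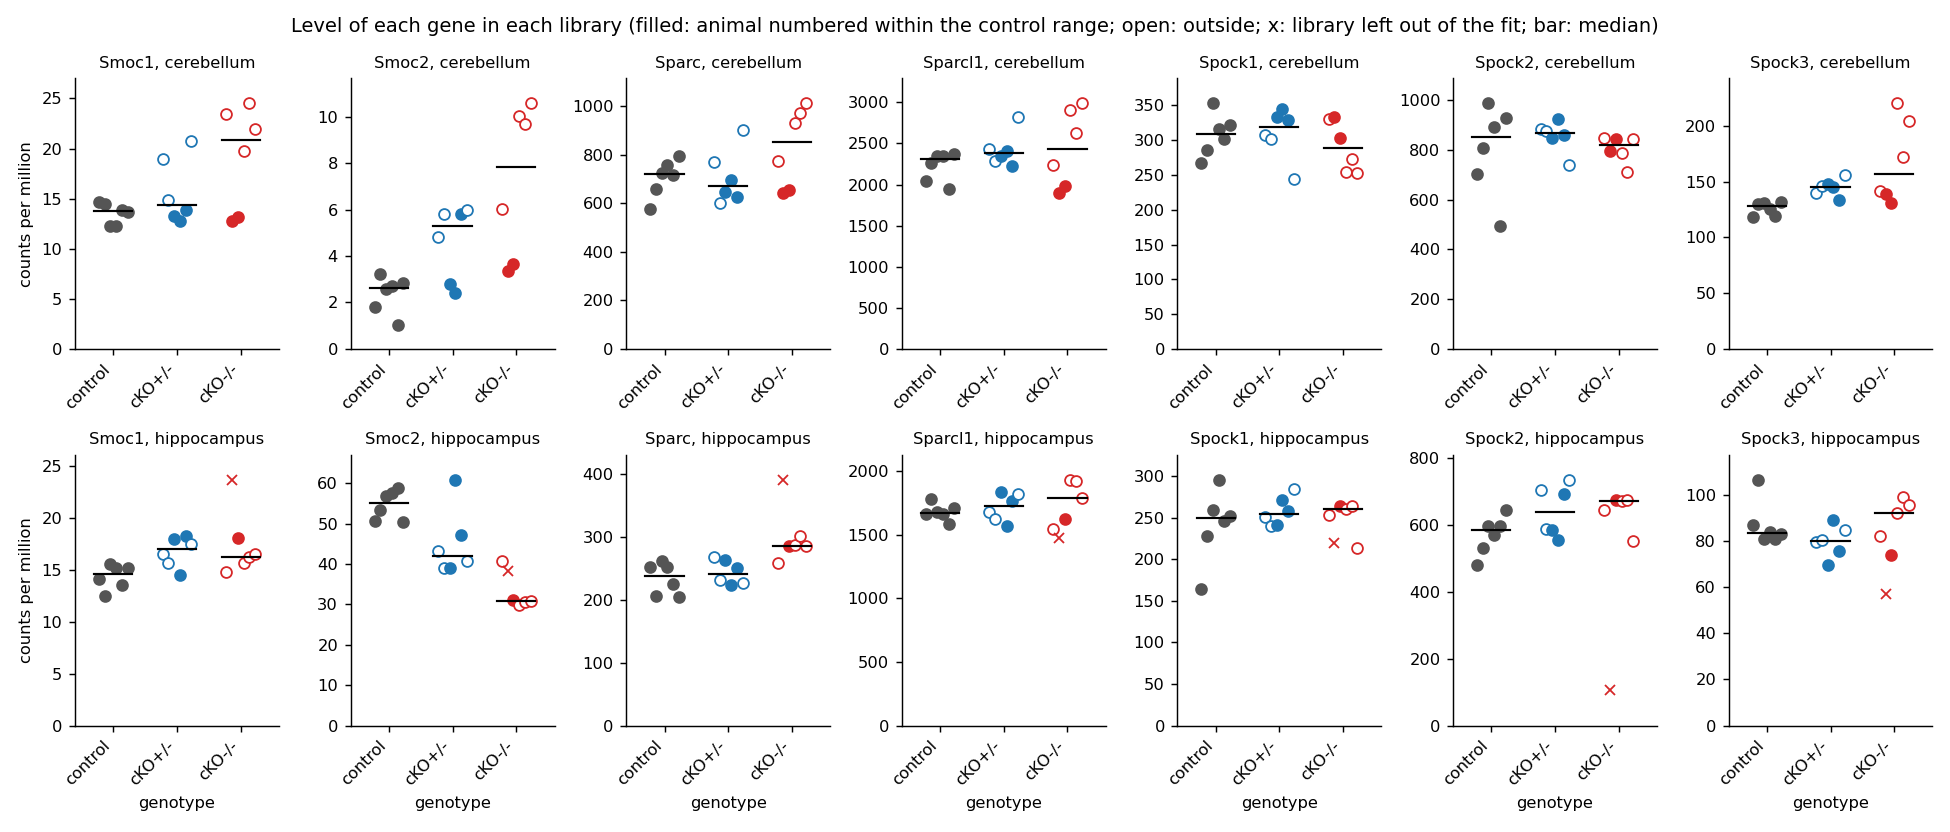
Each point is 1 library, with CPM on the vertical axis and genotype on the horizontal axis, for each gene in cerebellum (upper panels) and hippocampus (lower panels). Open points are animals numbered outside Sample_1120 to Sample_1219, the cross is the hippocampal library of animal Sample_1160, and the bar is the median of the libraries in the fit. In cerebellum the highest cKO-/- values of Smoc1, Smoc2, Sparc and Spock3 belong to open points.

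Smoc2 encodes a secreted modular calcium-binding protein. In cerebellum its lowest, median and highest levels were 1.02, 2.63 and 3.23 CPM in controls, 2.42, 5.31 and 5.97 CPM in cKO+/- and 3.35, 7.85 and 10.6 CPM in cKO-/-. In raw reads this was 32 to 94 counts per control library and 75 to 312 per cKO-/- library. Every cKO-/- library was above every control, and 4 of 6 cKO+/- libraries were, so the gene was scarce in control cerebellum and higher in both knockout groups. The fitted change was 0.81 on the log2 scale per allele lost (SE 0.166, 18 libraries), or 1.75-fold.

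In hippocampus the direction was the opposite one. Smoc2 was at 50.4, 55.2 and 58.8 CPM in controls, 39.1, 42.1 and 60.9 CPM in cKO+/- and 30.0, 31.0 and 40.8 CPM in the 5 cKO-/- libraries of the fit, with 38.3 CPM in the library of animal Sample_1160. All cKO-/- libraries and 5 of 6 cKO+/- libraries were below every control, and the cKO+/- library of animal Sample_1176 was above every control. The fitted change was -0.36 per allele lost on the log2 scale (SE 0.0558, 17 libraries), or 0.777-fold, and -0.35 with all 18 libraries. The changes in hippocampus and cerebellum differed by -1.17 on the log2 scale (SE 0.176), the value on which Smoc2 was selected, and even in cKO-/- the cerebellar level did not reach the lowest hippocampal one.

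Animal numbers moved with the size of the cerebellar Smoc2 change. The 2 cKO-/- animals within the control range were at 3.35 and 3.66 CPM, just above the highest control at 3.23 CPM, and the 4 outside it were between 6.02 and 10.6 CPM. The cerebellar change was 0.44 per allele (SE 0.158) with a term for the range and 0.35 (SE 0.187) among animals within it. In hippocampus the single cKO-/- animal of the fit within the range, at 31.1 CPM, sat among the 4 outside it, and the change was -0.31 (SE 0.0747) with the term and -0.31 (SE 0.090) within the range. The difference between tissues was -0.77 (SE 0.181) with the term in each tissue. These values describe the selected gene and are given with no test.

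Smoc1, the nearest relative of Smoc2 and like it a BMP antagonist, was at 12.2, 13.8 and 14.7 CPM in control cerebellum, 12.7, 14.4 and 20.8 CPM in cKO+/- and 12.8, 20.8 and 24.5 CPM in cKO-/-. Of the cKO-/- libraries 4 of 6 were above every control, and the other 2 were inside the control range. Smoc1 rose by 0.26 on the log2 scale per allele lost (SE 0.0773, adjusted p = 0.0335 by edgeR's quasi-likelihood F-test, Benjamini-Hochberg adjusted). The 2 cKO-/- animals numbered within the control range were those at 12.8 and 13.2 CPM, and the 4 outside it were between 19.7 and 24.5 CPM. With the range as a term the Smoc1 change was 0.05 (adjusted p = 0.751 by edgeR) and within the range -0.03 (adjusted p = 0.778 by edgeR). Its call was also lost when any 1 of 8 animals was left out (Sample_936, Sample_1170, Sample_1172, Sample_1190, Sample_1192, Sample_1371, Sample_1379 or Sample_1385), with adjusted p up to 0.0904 by edgeR.

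In hippocampus Smoc1 was at 12.5, 14.6 and 15.5 CPM in controls, 14.5, 16.98 and 18.2 CPM in cKO+/- and 14.7, 16.2 and 18.02 CPM in cKO-/-. Most knockout libraries (5 of 6 cKO+/- and 4 of 5 cKO-/-) were above every control, and the 2 knockout groups lay on top of each other. The change per allele, 0.10 on the log2 scale (SE 0.0427, adjusted p = 0.218 by edgeR), did not pass, and it was 0.14 (adjusted p = 0.217 by edgeR) with all 18 libraries. Smoc1 therefore did not share the lower hippocampal values of Smoc2, and its difference between tissues, -0.17 (95% interval -0.35 to 0.01), did not pass either (adjusted p = 0.429 by edgeR).

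Sparc encodes a collagen-binding protein made by glia and blood vessels. In hippocampus it was at 204, 239 and 262 CPM in controls, 224, 241 and 268 CPM in cKO+/- and 258, 286 and 302 CPM in cKO-/-, with 391 CPM in the library of animal Sample_1160. Of the cKO+/- libraries 2 of 6 were above the highest control and the rest were among the controls, and 4 of the 5 cKO-/- libraries were above every control. Sparc rose by 0.14 on the log2 scale per allele lost (SE 0.0345, adjusted p = 0.0231 by edgeR's quasi-likelihood F-test, Benjamini-Hochberg adjusted), and by 0.18 (adjusted p = 0.0394 by edgeR) with all 18 libraries. The call was lost without animal Sample_1155, Sample_1192, Sample_1371 or Sample_1379 (adjusted p = 0.0538, 0.0591, 0.0704 and 0.0748 by edgeR). With the range as a term the change was 0.15 and within the range 0.14, of much the same size but with adjusted p = 0.292 and 0.574 by edgeR.

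In cerebellum Sparc was at 578, 721 and 794 CPM in controls, 600, 671 and 902 CPM in cKO+/- and 644, 853 and 1014 CPM in cKO-/-. There 3 of 6 cKO-/- libraries were above every control and the rest were among them. Its change of 0.12 per allele (SE 0.0628, adjusted p = 0.205 by edgeR) did not pass, and the difference between tissues was 0.02 (95% interval -0.13 to 0.17, adjusted p = 0.954 by edgeR).

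Sparcl1, the hevin gene, had the highest control level per kilobase of the 7 in both tissues. In cerebellum it was at 1940, 2305 and 2378 CPM in controls, 2223, 2379 and 2817 CPM in cKO+/- and 1898, 2435 and 2993 CPM in cKO-/-. In hippocampus it was at 1583, 1669 and 1776 CPM in controls, 1569, 1722 and 1837 CPM in cKO+/- and 1541, 1784 and 1932 CPM in cKO-/-. The genotypes overlapped in both tissues, and the widest spread was among the cKO-/- cerebella, where 3 were above and 1 was below every control. Neither change per allele passed, 0.07 in cerebellum (adjusted p = 0.414 by edgeR) and 0.03 in hippocampus (adjusted p = 0.548 by edgeR).

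Spock3 encodes testican-3, an inhibitor of membrane-type matrix metalloproteinase activity. In cerebellum it was at 119, 128 and 132 CPM in controls, 133, 146 and 156 CPM in cKO+/- and 131, 157 and 221 CPM in cKO-/-. All 6 cKO+/- and 5 of 6 cKO-/- libraries were above every control, the clearest separation among the relatives in this tissue. Spock3 rose by 0.21 on the log2 scale per allele lost (SE 0.0521, adjusted p = 0.0147 by edgeR's quasi-likelihood F-test, Benjamini-Hochberg adjusted), and it passed whichever 1 of the 18 animals was left out (adjusted p at most 0.0465 by edgeR). The 2 cKO-/- animals within the control range of numbers were at 131 and 139 CPM and the 4 outside it between 142 and 221 CPM. With the range as a term the change was 0.12 (adjusted p = 0.321 by edgeR), and within the range it was 0.07 (adjusted p = 0.386 by edgeR).

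In hippocampus Spock3 was at 80.8, 83.4 and 107 CPM in controls, 69.5, 80.1 and 89.0 CPM in cKO+/- and 73.9, 92.1 and 99.3 CPM in cKO-/-. Of the cKO+/- libraries 4 of 6 were below every control, while 4 of 5 cKO-/- libraries were among the controls and 1 was below them. The change was 0.01 per allele (SE 0.0460, adjusted p = 0.947 by edgeR), or -0.03 with all 18 libraries. The difference of the Spock3 change between tissues was -0.21 (SE 0.0735), with adjusted p = 0.173 by edgeR. With the animal as a paired block it was -0.22 and passed, with adjusted p = 0.0325 by edgeR.

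Spock1 and Spock2 encode the other testicans, of which testican-1 inhibits cathepsin L. In cerebellum Spock1 ran from 267 to 353 CPM in controls and from 253 to 333 CPM in cKO-/-, and Spock2 from 496 to 989 CPM and from 710 to 850 CPM. In hippocampus Spock1 ran from 165 to 296 CPM in controls and from 214 to 264 CPM in cKO-/-. Neither gene separated the genotypes in these comparisons, with changes per allele of -0.04 and 0.00 in cerebellum and 0.03 for Spock1 in hippocampus (adjusted p = 0.621, 0.973 and 0.805 by edgeR). Hippocampal Spock2 was at 480, 585 and 644 CPM in controls, 554, 640 and 736 CPM in cKO+/- and 552, 673 and 676 CPM in cKO-/-, a change of 0.08 per allele (adjusted p = 0.221 by edgeR). Here the library of animal Sample_1160 decided the sign: it held 105 CPM of Spock2, and with it the change was -0.03.

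**Figure D3:**
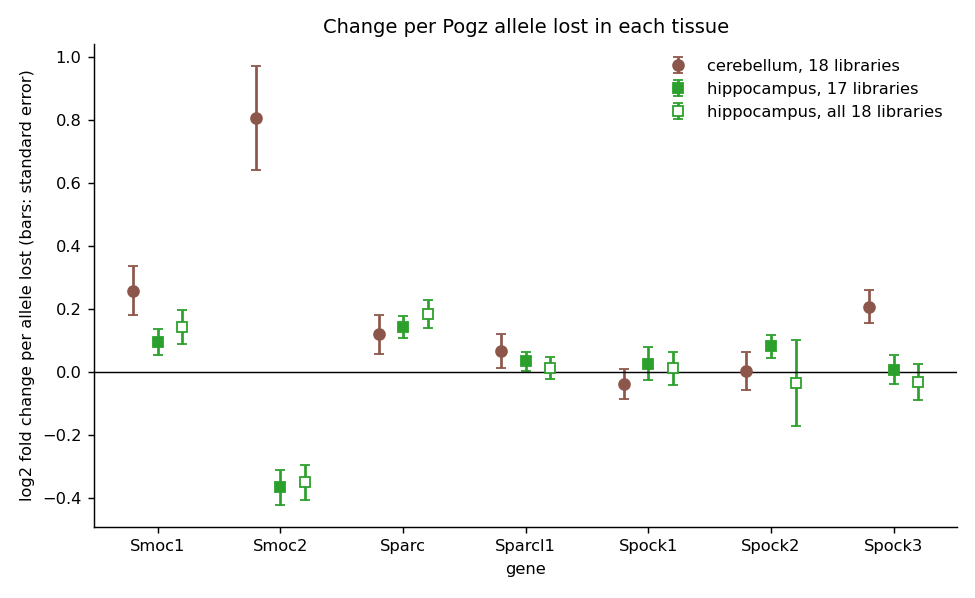
Log2 fold change per Pogz allele lost for each gene, with bars of 1 standard error, in cerebellum (18 libraries), hippocampus (17 libraries) and hippocampus with all 18 libraries. Smoc2 lies at 0.81 in cerebellum and -0.36 in hippocampus, while the other genes lie between -0.04 and 0.26.

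Set against all genes, 2 of the 6 relatives were called in cerebellum, Smoc1 and Spock3, beside 13.7% of the 14027 genes tested there (7.11% higher and 6.55% lower). In hippocampus 1 of 6 was called, Sparc, beside 4.44% of 14339 genes (2.09% higher and 2.35% lower), and with all 18 libraries again 1, beside 1.72%. With 6 genes, 1 call more or fewer moves such a share by a large step, and the counts were not tested against it. The median change of the relatives was 0.09 in cerebellum and 0.06 in hippocampus, against 0.00 over all genes in each.

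The change per allele differed between tissues for 0 of the 6 relatives by the edgeR test, beside 1.49% of the 13587 genes tested in both. At an unadjusted p below 0.05 the count was 1 of 6, which was Spock3, and DESeq2 called 0. That fit does not pair the 2 tissues of an animal. With the animal as a paired block edgeR called 1 of 6, Spock3 (adjusted p = 0.0325 by edgeR), beside 338 of all genes.

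A 2-sided exact permutation test compared control with cKO-/- libraries for each relative in each tissue, 12 tests in all with p not adjusted. The smallest p that 6 against 6 or 6 against 5 libraries can give is 0.00216. In cerebellum the exact permutation p was 0.00433 for Spock3, 0.0455 for Smoc1 and 0.139 for Sparc, with log2 differences of 0.39, 0.47 and 0.22. In hippocampus the exact permutation p was 0.0108 for Sparc, 0.0281 for Smoc1 and 0.0628 for Spock2, with log2 differences of 0.28, 0.18 and 0.18, and the other 6 p were 0.329 or more. No relative had every cKO-/- library on 1 side of every control, 0 of 6 in each tissue, beside 4.58% of all genes in cerebellum and 3.65% in hippocampus.

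Whether cKO+/- lay midway between control and cKO-/- was tested for the 6 relatives. For Smoc2, selected on values of these same libraries, the departure is given as a description with no test. In cerebellum Smoc2 in cKO+/- departed from the midpoint by 0.15 on the log2 scale (95% interval -0.41 to 0.70) and in hippocampus by 0.09 (-0.09 to 0.27). Among the relatives edgeR called 0 of 6 in each tissue, with 0 of 6 at an unadjusted p below 0.05 and 0 by DESeq2. Over all genes edgeR called 3 in cerebellum (0.0214%, with 349 at an unadjusted p below 0.05 and 12 by DESeq2) and 0 in hippocampus (0%, with 1425 and 12).

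A difference of the change between males and females was likewise tested for the relatives and is given for Smoc2 as a description. For Smoc2 it was -0.15 in cerebellum (95% interval -0.82 to 0.51) and 0.07 in hippocampus (-0.16 to 0.29). Among the relatives edgeR called 0 of 6 in each tissue, with 0 of 6 at an unadjusted p below 0.05 and 0 by DESeq2. Over all genes edgeR called 0 in either tissue (0%), with 557 at an unadjusted p below 0.05 in cerebellum and 770 in hippocampus, and DESeq2 called 0. The intervals for Smoc2 are wide in cerebellum, and a moderate sex difference could be missed at this depth and number of animals.

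How the 7 genes varied between animals of 1 genotype was described by Pearson r of log2 CPM after sex and genotype were fitted. In the 18 cerebellar libraries the median r over the 21 pairs was 0.407, from -0.605 to 0.909, with 9 pairs above 0.5. The highest were Sparcl1 with Spock3 (0.909), Sparc with Sparcl1 (0.887) and Smoc2 with Sparcl1 (0.776). In the 17 hippocampal libraries the median was 0.0455, from -0.637 to 0.666, with 3 pairs above 0.5, and Smoc2 with Sparcl1 was the lowest pair at -0.637. Smoc2 thus went with Sparcl1 from animal to animal in cerebellum and against it in hippocampus, and no test was made of that difference. The range of animal numbers was not fitted here, and its part in these r was not tested. In cKO-/- cerebellum the 2 animals within the range were low in both genes (3.35 and 3.66 CPM of Smoc2, 1898 and 1979 CPM of Sparcl1) and the 4 outside it were higher in both (6.02 to 10.6 CPM and 2243 to 2993 CPM). The points share their libraries and dissections, so these r are descriptions.

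**Figure D4:**
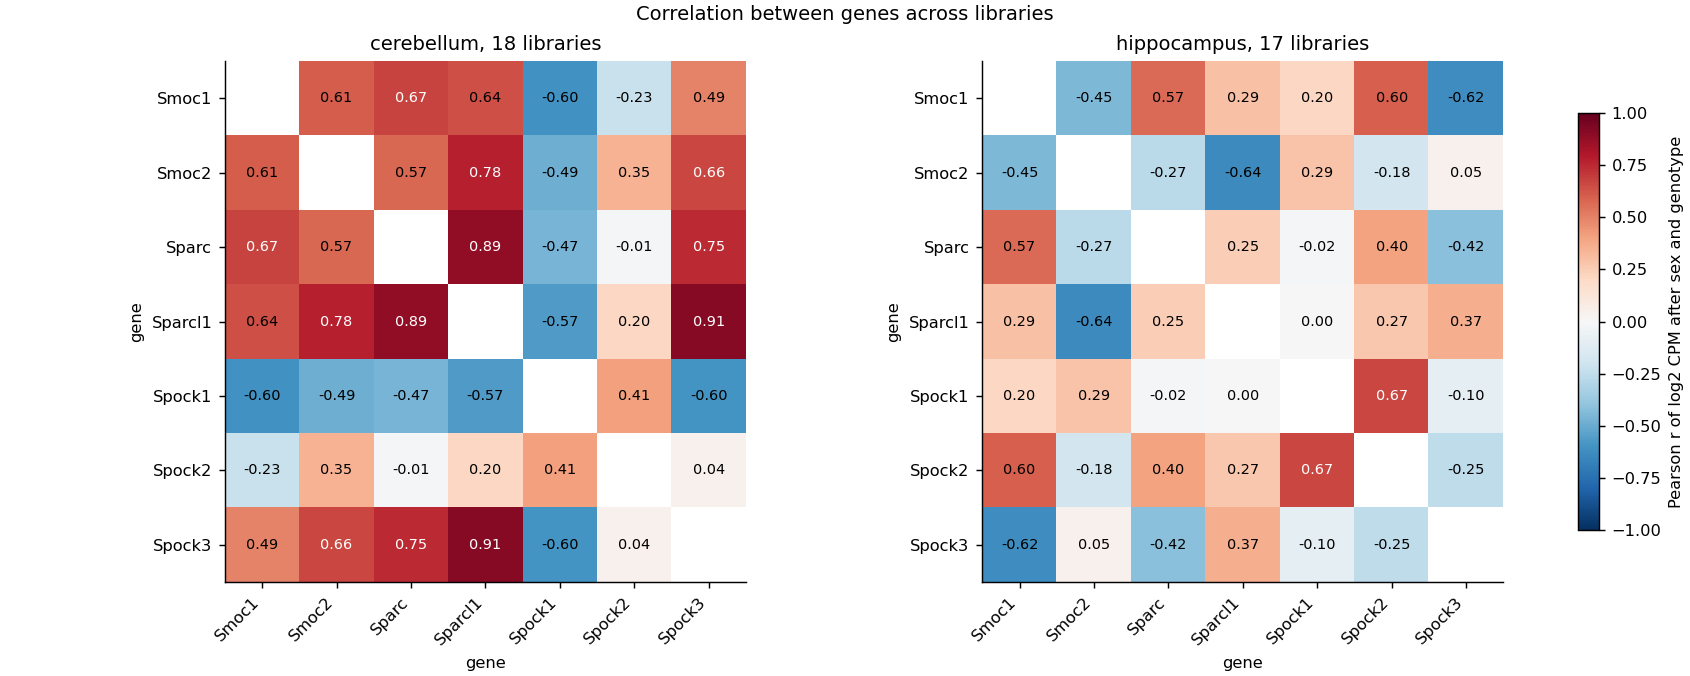
Pearson r between each pair of genes across libraries, after sex and genotype were fitted to log2 CPM, in cerebellum (18 libraries) and hippocampus (17 libraries), with red positive and blue negative. In cerebellum Smoc1, Smoc2, Sparc, Sparcl1 and Spock3 form a block of positive values and Spock1 is negative with each of them.

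The genes most like Smoc2 by the same measure were different ones in each tissue. Among 14026 other genes in cerebellum (18 libraries) they were Shisa2 (0.914), Klf5 (0.910), Krt80 (0.909), Acpp (0.908) and Slc9a2 (0.898). Among 14338 in hippocampus (17 libraries) they were Mrpl3 (0.924), Pitpnb (0.908), Arhgef4 (0.862), Rin1 (0.862) and Kcnip2 (0.858). Of the cerebellar genes Shisa2 (0.25) and Slc9a2 (0.46) rose per allele lost (adjusted p = 0.0122 and 0.00921 by edgeR). No control library of Klf5, Krt80 or Acpp was above 1 CPM. These 3 passed the filter on their knockout libraries, which favours genes that are higher there, so their changes are given with no test. Neither Shisa2 nor Slc9a2 passed with the range as a term (adjusted p = 0.270 and 0.294 by edgeR). With that term the changes of Klf5, Krt80 and Acpp went from 0.76, 0.64 and 0.76 to 0.36, 0.30 and 0.32. Of the hippocampal genes Rin1 (-0.13) and Kcnip2 (-0.15) fell (adjusted p = 0.0205 and 0.0152 by edgeR), while Mrpl3 (0.00), Pitpnb (-0.04) and Arhgef4 (-0.08) did not pass. When 1 animal was left out, the call was lost in 3 of 17 fits for Rin1. Neither Rin1 nor Kcnip2 passed with all 18 libraries (adjusted p = 0.0935 and 0.349 by edgeR) or with the range as a term (0.627 and 0.704 by edgeR).

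The 7 genes sit on 7 chromosomes, and 0 of them has an exon that overlaps an exon of another listed gene. Smoc2 lies on chromosome 17 from 14279506 to 14404790 on the plus strand, in the coordinates of the deposited tables, which match GRCm38. Its nearest listed gene on one side is Dact2, 75675 bases away, and on the other Thbs2, a thrombospondin gene, 260710 bases away. Dact2 was at 3.85, 4.20 and 4.95 CPM in control and 3.93, 6.17 and 10.1 CPM in cKO-/- cerebellum, and its change of 0.27 per allele did not pass (adjusted p = 0.132 by edgeR). Thbs2 rose by 0.35 in cerebellum (adjusted p = 0.00794 by edgeR, but 0.16 with adjusted p = 0.291 with the range as a term) and stood at 0.33 in hippocampus (adjusted p = 0.123 by edgeR), so neither neighbour passed as lower in hippocampus.

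Genes that work with the family were read from 6 lists of 98 genes, with counts to be read beside the 13.7% of all genes called in cerebellum and the 4.44% called in hippocampus, since 1 to 3 calls in a short list can lie near those shares. In the list of other genes with SPARC or follistatin domains, 2 of 7 tested genes rose in cerebellum and 0 fell, and in hippocampus 1 of 9 rose and 1 fell. Fstl1, a secreted follistatin-like protein that binds BMPs, was at 17.97, 21.4 and 22.4 CPM in control and 28.4, 33.6 and 63.6 CPM in cKO-/- cerebellum, every library of which was above every control, and it rose by 0.45 per allele (adjusted p = 0.00794 by edgeR). Tmeff2, a transmembrane protein with follistatin domains, rose in both tissues, by 0.11 and 0.13 (adjusted p = 0.0319 and 0.0196 by edgeR). Fstl4 fell by 0.31 in hippocampus (adjusted p = 0.0329 by edgeR, and 0.0743 with all 18 libraries), and its change differed between the tissues (-0.41, adjusted p = 0.0496 by edgeR). With the number range as a term edgeR called 0 of this list in either tissue.

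**Figure D5:**
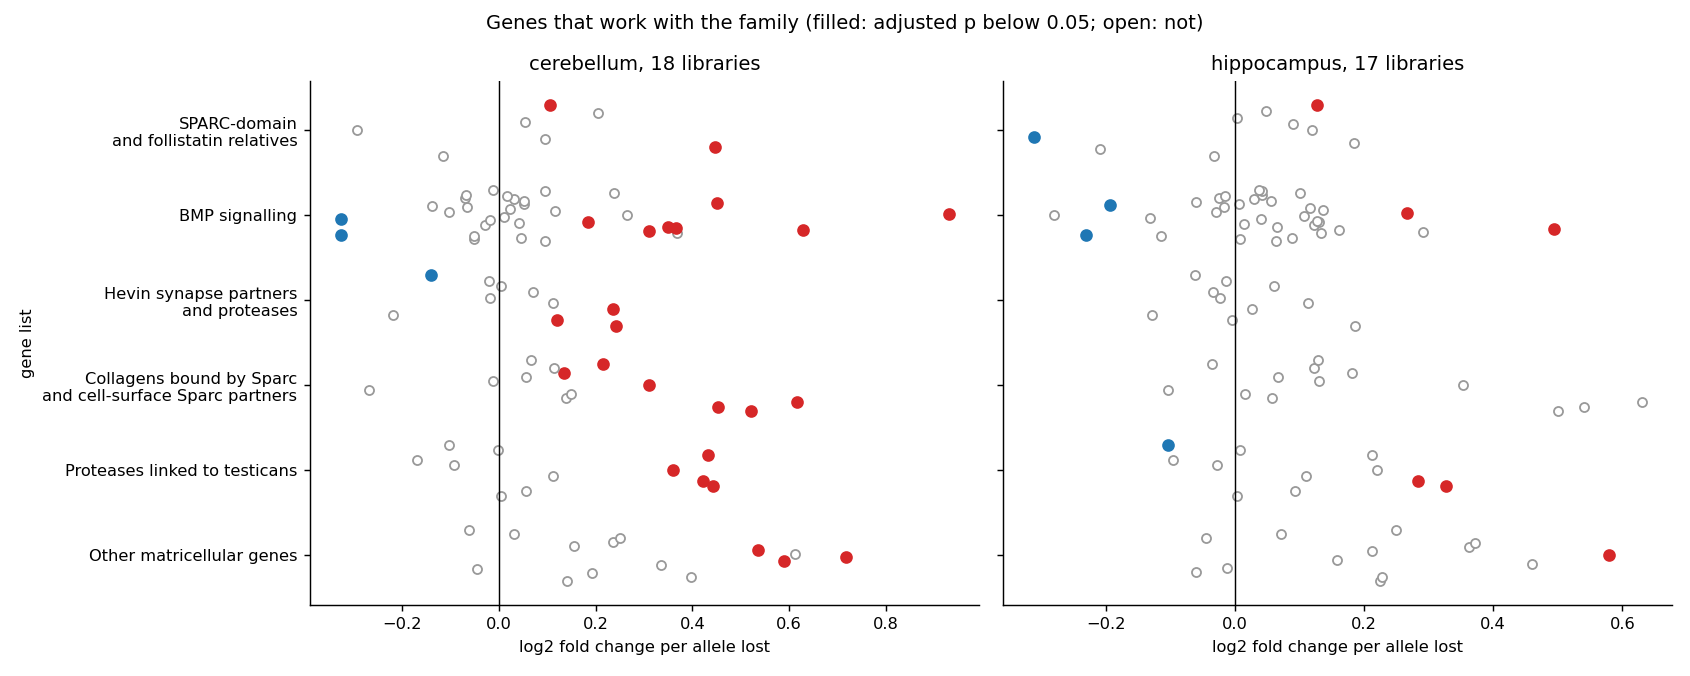
Log2 fold change per allele lost of each tested gene in the 6 lists, in cerebellum (18 libraries) and hippocampus (17 libraries), with filled points for genes past the edgeR test (red higher, blue lower) and open points for the others. In cerebellum 7 of 33 BMP genes and 6 of 13 collagens and Sparc partners are filled on the higher side.

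Of the BMP signalling genes, whose pathway the Smoc proteins antagonise, 7 of 33 rose and 2 fell in cerebellum. The ligand genes Bmp5 (0.63), Bmp6 (0.37) and Bmp7 (0.35), the antagonist Nog (0.45) and the receptor gene Bmpr1b (0.18) rose, and the antagonist Chrd fell (-0.33), with adjusted p = 0.00342, 0.0101, 0.0148, 0.00159, 0.0173 and 0.0180 by edgeR. Bmp5 was at 12.2, 19.1 and 22.2 CPM in control and 33.4, 37.3 and 68.8 CPM in cKO-/- cerebellum, and it was the gene of this list called with the range as a term (0.71, adjusted p = 0.00637 by edgeR). In hippocampus Bmp5 rose (0.49), and Bmp1 (-0.23) and the antagonist Nbl1 (-0.19) fell, with adjusted p = 0.0287, 0.0125 and 0.0174 by edgeR. With all 18 libraries 1 of these 3, Bmp1, passed (adjusted p = 0.0157 by edgeR), and with the range as a term edgeR called 0 of this list in hippocampus. Nog was the gene of this list whose change differed between tissues (-0.52, adjusted p = 0.0151 by edgeR).

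Of the synaptic partners and proteases of hevin, 3 of 10 rose and 1 fell in cerebellum. Mdga2 (0.24), which binds neuroligins, Adamts4 (0.24), a protease that cleaves hevin, and Clstn3 (0.12), a synaptic organiser, rose, and Nrxn3 (-0.14), a neurexin gene, fell, with adjusted p = 0.0116, 0.0220, 0.0323 and 0.0414 by edgeR. In hippocampus edgeR called 0 of 10, with 3 at an unadjusted p below 0.05 and 0 by DESeq2. With the range as a term edgeR called 0 of 10 in cerebellum too, and Sparcl1 itself passed in neither tissue.

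Of the collagens bound by Sparc and its cell-surface partners, 6 of 13 rose in cerebellum and 0 fell. Col1a2 was at 36.8, 37.8 and 48.5 CPM in control and 52.4, 77.7 and 90.3 CPM in cKO-/- cerebellum, with no overlap, and it rose by 0.45 per allele (adjusted p = 4.21e-05 by edgeR). Col3a1 (0.62), Col1a1 (0.52), Col5a2 (0.31), the scavenger receptor gene Stab1 (0.22) and the integrin gene Itgb1 (0.13) also rose, with adjusted p = 0.00104, 0.00126, 0.0137, 0.0220 and 0.0216 by edgeR. With the range as a term 3 of these 6 passed, Col1a2, Col3a1 and Col1a1 (adjusted p = 0.00106, 0.0445 and 0.0455 by edgeR). In hippocampus, where Sparc itself rose, edgeR called 0 of 13, with 5 at an unadjusted p below 0.05 and 1 by DESeq2.

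Of the proteases and inhibitors linked to testicans, 4 of 11 rose in cerebellum and 0 fell. Mmp14 and Mmp15, membrane-type matrix metalloproteinases, rose in cerebellum (0.44 and 0.42, adjusted p = 0.000907 and 0.00103 by edgeR) and in hippocampus (0.33 and 0.28, adjusted p = 0.0103 and 0.0105 by edgeR). Mmp14 was at 15.4, 15.9 and 18.1 CPM in control and 19.7, 31.6 and 37.3 CPM in cKO-/- cerebellum. Both passed with the range as a term in cerebellum (adjusted p = 0.0323 and 0.0292 by edgeR), and neither passed in hippocampus (0.549 and 0.175 by edgeR). Timp2 (0.43) and Mmp2 (0.36) rose in cerebellum (adjusted p = 0.0391 and 0.0497 by edgeR), but not with the range as a term (0.664 and 0.641 by edgeR), nor in 9 and 15 of the 18 fits that left out 1 animal, and in hippocampus 1 of 11 fell, the inhibitor gene Timp4 (-0.10, adjusted p = 0.0247 by edgeR, and 0.940 with all 18 libraries).

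Of the other matricellular genes, 3 of 14 (21.4%, beside 13.7% of all genes) rose in cerebellum, Postn (0.72), Nov (0.59) and Tgfbi (0.54), with adjusted p = 0.00669, 0.0309 and 0.0179 by edgeR. In hippocampus 1 of 13 (7.69%, beside 4.44%) rose, Postn (0.58, adjusted p = 0.0247 by edgeR), and in both tissues 0 fell. Tgfbi, a collagen-binding protein, was at 2.78, 3.90 and 4.57 CPM in control and 5.76, 7.97 and 9.59 CPM in cKO-/- cerebellum. With the range as a term edgeR called 0 of this list in either tissue. The median change of this list was 0.24 in cerebellum and 0.22 in hippocampus, the highest of the 6 lists in each, against 0.00 over all genes.

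Some calls on named genes of these lists depended on single animals. Of the 18 cerebellar fits that left out 1 animal, the call was lost in 13 for Nrxn3, 7 for Tmeff2, 7 for Nov, 6 for Clstn3, 3 for Itgb1, 2 for Chrd, 1 for Adamts4 and 1 for Stab1. Of the 17 such hippocampal fits it was lost in 8 for Bmp5, 6 for Fstl4, 6 for Timp4, 5 for Postn, 4 for Tmeff2 and 3 for Nbl1.

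Markers of several cell types moved with these genes, and their counts too are to be read beside the 13.7% of all genes called in cerebellum (7.11% higher) and the 4.44% called in hippocampus. In cerebellum 7 of 10 meningeal fibroblast markers rose (4 with the range as a term, and 2 rose and 1 fell within the range), and their summed level was 258, 283 and 348 CPM in controls, 320, 404 and 509 CPM in cKO+/- and 328, 616 and 653 CPM in cKO-/-, with Igf2 the most abundant. The 4 cKO-/- animals outside the range of numbers were between 613 and 653 CPM and the 2 within it at 328 and 401 CPM. Col1a1, Col1a2 and Col3a1 belong to this list too. After sex and genotype, the meningeal sum followed Smoc1 with r = 0.914, Sparc with 0.762, Sparcl1 with 0.748 and Smoc2 with 0.698 over the 18 libraries. The range of animal numbers was not fitted for these r or those with marker sums below, and its part in them was not tested. The sum of thalamus and midbrain markers followed Sparc (0.872) and Sparcl1 (0.870) more closely than the meningeal sum did and Smoc1 (0.833) less closely, and the microglial sum followed Smoc1 with 0.781. Prkcd led the thalamus and midbrain sum, at a control mean of 86.2 CPM beside a median control sum of 108 CPM. That sum therefore rests largely on 1 gene, and whether it marks thalamus or midbrain tissue here was not tested. In a bulk sample, more cells of a type and more RNA per cell cannot be told apart. The part of these cells in the changes of Smoc1, Smoc2 and Spock3 was not tested.

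Glial markers moved in cerebellum as well: 4 of 8 astrocyte, 3 of 8 microglial, 2 of 8 oligodendrocyte and 2 of 6 Bergmann glia markers rose, and 0 fell. These counts were 1, 0, 0 and 1 with the range as a term. The astrocyte sum, led by Aldoc, was 5752, 6249 and 6379 CPM in controls, 6120, 6512 and 6678 CPM in cKO+/- and 6047, 7073 and 8019 CPM in cKO-/-, and it followed Spock3 with r = 0.855, Sparcl1 with 0.797 and Smoc2 with 0.743. The sum of the 8 granule cell markers, led by Cbln3, was 5311, 5813 and 6244 CPM in controls, 3649, 5749 and 6770 CPM in cKO+/- and 3320, 4825 and 6432 CPM in cKO-/-, and it went against Sparcl1 (r = -0.767), Spock3 (-0.753) and Smoc1 (-0.749) and with Spock1 (0.859). No marker of the meningeal, astrocyte or granule cell lists was at 0 in all cerebellar libraries. Both sums split by the range of animal numbers in cKO-/-. The astrocyte sum was 6047 and 6143 CPM within it and 6522 to 8019 CPM outside it. The granule cell sum was 6070 and 6432 CPM within it and 3320 to 5121 CPM outside it. In cKO+/- the astrocyte sums overlapped, at 6418 to 6661 CPM within and 6120 to 6678 CPM outside. What part the range or these cells had in the values of the 7 genes was not tested.

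In hippocampus 3 of 9 endothelial markers rose, but 1 with all 18 libraries and 0 with the range as a term. Their sum, led by Itm2a, was 161, 178 and 188 CPM in controls, 143, 196 and 227 CPM in cKO+/- and 185, 245 and 280 CPM in cKO-/-, and 256 CPM in the library of animal Sample_1160. Over the 17 libraries it went against Smoc2 (r = -0.739), with Sparcl1 (0.694) and less closely with Sparc (0.410). Sparc went more closely with the meningeal sum (0.575), which was 74.7, 118 and 359 CPM in controls, 140, 223 and 269 CPM in cKO+/- and 133, 268 and 475 CPM in cKO-/-. All 10 meningeal markers had a positive change (median 0.44, 8 at an unadjusted p below 0.05), and edgeR called 1. Of the 10 hippocampal neuron markers 2 fell, but 1 with all 18 libraries, 1 with the range as a term and 0 within the range. The sum of these 10 markers followed Smoc2 with r = 0.419 and went against Smoc1 (-0.739). No endothelial or hippocampal neuron marker was at 0 in all hippocampal libraries, and the part of these cells in the changes of Smoc2 and Sparc was not tested.

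Choroid plexus markers set some libraries apart. In cerebellum their sum was between 18.5 and 25.7 CPM in controls, and between 2372 and 3188 CPM in 3 knockout libraries outside the range of numbers, those of Sample_933 and Sample_1433 (cKO+/-) and Sample_936 (cKO-/-), and it followed Smoc1 with r = 0.701. In hippocampus it was between 1138 and 5024 CPM in controls Sample_1129 and Sample_1170 and cKO-/- animals Sample_1219 and Sample_1385, and at most 666 CPM in the others. The part of this tissue in the values of the 7 genes was not tested.

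Of the other marker lists in cerebellum, edgeR called 1 of 8 Purkinje, 2 of 7 hippocampal neuron and 1 of 2 brainstem markers higher and 1 of 9 endothelial markers lower. Only 2 of the 8 brainstem markers passed the filter, and Slc6a5 led their sum (control mean 11.6 CPM, beside a median control sum of 12.7 CPM). A scarce gene can pass the filter on its knockout libraries, which favours genes that are higher there, so the brainstem count is not read as a result. It called 0 granule cell, oligodendrocyte precursor, mural, choroid plexus, thalamus or blood markers, with 1, 3, 0, 1, 2 and 0 at an unadjusted p below 0.05 and 0, 1, 0, 1, 1 and 0 by DESeq2. In hippocampus it called 2 of 6 Bergmann glia, 1 of 8 astrocyte, 1 of 10 mural and 1 of 10 meningeal markers higher and 1 of 5 thalamus markers lower. For the remaining hippocampal lists, granule cell, Purkinje, oligodendrocyte, oligodendrocyte precursor, microglia, choroid plexus, brainstem and blood, it called 0, with 0, 0, 4, 2, 0, 0, 0 and 0 at an unadjusted p below 0.05 and 0, 0, 1, 0, 0, 0, 0 and 0 by DESeq2. Among the blood markers 5 of 7 were at 0 in all cerebellar and 6 of 7 in all hippocampal libraries, all of them globin genes, while Alas2 was counted in both tissues. Zeros in every library may come from how these genes were counted, so they are not read as a lack of blood, and what remains of this list is close to Alas2 alone.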

How the data were processed

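Poly(A) RNA from cerebellum and hippocampus of the same 18 mice was sequenced, 1 library per animal and tissue. The authors aligned the reads with STAR 250a and deposited raw counts per gene. The deposited tables also list the summed exon length of each gene in bases. The labels name mm9, but the ends of the 8 genes checked (the 7 family members and Pogz) lie within 2000 bases of their GRCm38 ends in 8 cases and of their NCBIM37 ends in 0, so coordinates are called GRCm38.

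Counts were read in R 4.3.3 and fitted with edgeR 4.0.16 (limma 3.58.1), using TMM factors, the legacy quasi-likelihood F-test and Benjamini-Hochberg adjustment over all genes tested, with a threshold of 0.05. Genes with more than 1 CPM in at least 6 libraries were kept. The model held sex and the number of Pogz alleles lost (0, 1 or 2) as a number. The tissue difference was an interaction in 1 fit of both tissues, the midpoint test used genotype as a factor, and the sex test used an interaction. The hippocampal library of animal Sample_1160 was left out after the filter and scaling, and all 18 libraries were the alternative. Intervals are 95% normal intervals. The steps were tested on simulated data. Alternatives were size factors by relative log expression, DESeq2 1.42.0, a bias-adjusted fit, no filter, no sex term, genotype as a factor, a term for the animal number range, animals within it, the animal as a block, and each animal left out in turn.

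Same-numbered libraries come from 1 animal per the labels. Their deviations from group means correlated with a median r of 0.217 (-0.148 to 0.435, above 0.1 in 15 of 17 animals), against -0.0707 for other animals of the genotype.

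Named genes are the 7 members, Pogz, from each pathway list the 6 genes with the smallest adjusted p among those that passed in a tissue, the 5 genes most like Smoc2 per tissue by r of residual log2 CPM (prior count 2), and its nearest listed neighbours. The members, the 6 pathway lists and the 15 marker lists of 122 genes were chosen with earlier results of these data known. The precision per gene is given as the SE of each fit, and counting error was not separated from the spread between animals.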

Additional observations from a re-analysis of the deposited data

Results flagged for a closer look

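Of 42 groups (7 genes, 3 genotypes and 2 tissues), 6 held a library whose gap to the nearest other was large against the range of its group, and chance alone gives about 1 in 20 groups. Of these, 3 involve the hippocampal library of animal Sample_1160 (cKO-/-), which was left out of the fits. It held 23.7 CPM of Smoc1 and 391 CPM of Sparc, where the other cKO-/- libraries ran from 14.7 to 18.02 and from 258 to 302 CPM, and 105 CPM of Spock2, where they ran from 552 to 676 CPM. As data outside the main comparison, its Smoc1 (23.7 CPM) and Sparc (391 CPM) also lay above every control.

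The hippocampal cKO+/- library of animal Sample_1176 held 60.9 CPM of Smoc2, where the others ran from 39.1 to 47.1 CPM. The cerebellar cKO+/- library of animal Sample_1433 held 2817 CPM of Sparcl1, where the others ran from 2223 to 2430 CPM. The hippocampal control library of animal Sample_1155 held 107 CPM of Spock3, where the others ran from 80.8 to 87.1 CPM.

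The change of Smoc2 per allele lost differed between the tissues by -1.17 on the log2 scale, with every cKO-/- library above the controls in cerebellum and below them in hippocampus. This difference selected the gene and was not tested.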

How the results depend on the processing

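The calls of the relatives held under most alternatives in each tissue: 2 in cerebellum and 1 in hippocampus with other size factors, DESeq2, no filter, the bias-adjusted fit, no sex term and genotype as a factor. They did not hold for the range of animal numbers. With a term for it, 0 relatives were called in either tissue (308 genes in cerebellum, 68 in hippocampus), and within it again 0 (277 and 27 genes), where fewer animals enter. The cause was not tested. Leaving out 1 animal gave 1 to 2 relatives and 935 to 2572 genes in cerebellum, and 0 to 1 relatives and 286 to 937 genes in hippocampus.

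DESeq2 called 1056 genes in hippocampus, 12 for the midpoint in each tissue and 337 for the tissue difference, all 18 hippocampal libraries gave 246 genes, and the range term gave 10 genes for the tissue difference. With the animal as a block, to respect the pairing, the tissue difference held 1 relative (Spock3) and 338 genes, Sparc turned to -0.00326, and Spock1 passed between control tissues (adjusted p = 0.0106 by edgeR), while no other call on a relative changed.

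These signs turned, for log2 values that had not passed unless named. With all 18 libraries: Spock2 -0.0338, Spock3 -0.0314, Dact2 0.0701 and Pitpnb 0.0245 in hippocampus, Smoc1 -0.0515 for the hippocampal sex difference, Sparcl1 0.0175 for the hippocampal midpoint, and Spock2 -0.0434 for the tissue difference. With the range term: Sparcl1 -0.0357 and Spock1 0.0253 in cerebellum, Spock3 -0.0470 and Dact2 0.0159 in hippocampus, and Smoc1 0.0615 and Sparcl1 0.0433 for the tissue difference. Within the range: Smoc1 -0.0262 and Nov -0.119 (both called with all animals), Sparc -0.0659, Sparcl1 -0.0701, Spock1 0.0404 and Dact2 -0.00231 in cerebellum, and Sparcl1 -0.00333, Spock3 -0.137 and Dact2 0.0376 in hippocampus. Without the filter: Spock2 -0.00243 in cerebellum and Mrpl3 -0.000307 in hippocampus. Without the sex term: Dact2 0.00302 in hippocampus. Leaving out 1 animal, Spock2 ran from -0.0526 to 0.0310 in cerebellum, and in hippocampus Spock1 ran from -0.0155 to 0.0630, Spock3 from -0.0199 to 0.0520, Dact2 from -0.0299 to 0.0375 and Mrpl3 from -0.0104 to 0.0107. The cause was not tested.

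An exact permutation test with all 18 hippocampal libraries, chosen after seeing the data, gave p = 0.00433 for Sparc and 0.0130 for Smoc1 (exact permutation, unadjusted), and 4 of 12 tests were below 0.05, as with 17 libraries.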
